A study of Mus musculus with 2 samples.

Results

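Levels of 10 genes of the unfolded protein response and the integrated stress response (Ppp1r15a, Atf4, Ddit3, Xbp1, Atf6, Creb3l2, Hspa5, Sdf2l1, Dnajb9 and Herpud1) were described in single CD4 T cells of mouse spleen. They are 10 of the 35976 gene rows of the count tables. They were chosen by name with their ratios between pools, plate values and shares of positive cells from earlier results of these data in view, and all 10 were found. Every value of theirs below is therefore a description and none is a test. The study transferred OTII T cells, CD4 T cells with a transgenic receptor for ovalbumin, into hosts in order to ask what IL-13 contributes to T follicular helper cells, which support antibody responses. The hosts of the first pool were 3 mice labelled IL13Ra1f/f, CD11cCre/+, called deleted hosts here, and the hosts of the other pool were 2 C57BL/6 mice, called control hosts. CD11c-Cre acts mainly in dendritic cells, so the deletion is one of host cells, and the counts of the transferred T cells do not show it. Cells were taken on day 7 after a step labelled only CAS and a second priming, and were sorted as propidium iodide negative, V beta 5.1/5.2 positive and CD4 positive, and since no congenic marker is named the gate would also pass V beta 5 bearing CD4 cells of the host. Neither age nor sex of the mice is given in the sources used here.

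Each pool filled 368 wells on 4 plates, sequenced by SmartSeq2, a full-length method with 1 cell per well. The pools held 542650671 reads in genes for deleted hosts and 573105030 for control hosts, with 125197307 to 143937319 and 137968663 to 148025125 reads per plate. Medians per cell were 1499762 reads and 1540.5 genes with 5 reads or more in deleted hosts, and 1592794.5 reads and 1574 genes in control hosts. Among the 736 cell wells 2 held under 100000 reads, well C5 of deleted plate 1 with 71129 reads and well A12 of deleted plate 4 with 9905 reads, and no pair of wells had identical counts. The 7 CD4 T cell markers with a row summed to 7060 reads per 1000000 (CPM) in deleted hosts and 6888 CPM in control hosts. Plasma cells carry large amounts of Xbp1 and Hspa5, so their markers matter here. Of 8 plasma cell markers with a row, 6 lay under 1 CPM in both pools, and the sum of the list was 26.6 CPM in deleted hosts and 22.5 CPM in control hosts (plates 5.96 to 50.1 and 7.04 to 60.9), most of it from Irf4, which activated T cells also use (21.7 and 20.4 CPM). Sdc1 and Mzb1 lay at 0.0129 and 0.0498 CPM in deleted hosts and at 0.0192 and 0.0279 CPM in control hosts. The 9 B cell markers summed to 38.5 CPM in deleted hosts and 31.5 CPM in control hosts. Of these, Cd74 was at 32.1 CPM in deleted hosts and 26.3 CPM in control hosts, Cd79a at 3.18 and 3.63 CPM, Cd79b at 1.65 and 1.34 CPM and Cd22 at 1.41 and 0.0890 CPM, and the other 5 lay under 1 CPM in both pools. The 7 NK cell markers summed to 50.8 CPM in deleted hosts and 30.7 CPM in control hosts, without overlap of plates (42.3 to 58.7 and 18.8 to 40.1 CPM), mostly from Prf1 (24.6 and 9.96 CPM) and Klrb1c (18.5 and 14.7 CPM), while Ncr1 was at 0.861 and 0.640 CPM. The 2 CD8 T cell markers summed to 9.47 CPM in deleted hosts and 26.5 CPM in control hosts, nearly all from Cd8b1, with overlapping plates and with Cd8a at 0.199 and 0.155 CPM. The 5 neutrophil markers summed to 10.9 CPM in deleted hosts and 8.37 CPM in control hosts, and 31 and 11 cells were positive for 2 or more of them. The part of such cells in the levels below was not tested, other than for B cell and plasma cell markers. With 1 pooled sample per group there is no test between groups, plates of a pool split the same mice, and plate and pool cannot be told apart.

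The unfolded protein response senses misfolded proteins in the endoplasmic reticulum (ER) through IRE1, PERK and ATF6. IRE1 splices the Xbp1 mRNA, PERK phosphorylates the translation factor eIF2, and ATF6 moves to the Golgi apparatus, where proteases release its transcription factor part. The integrated stress response is the wider set of pathways that end in phosphorylated eIF2, which slows most translation and favours that of Atf4 mRNA. T cells that grow and begin to secrete after antigen contact are known to engage parts of both. Counts per gene measure neither the splicing of Xbp1 nor the translation of Atf4, so only the amounts of these mRNAs are described.

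Promoter sequence was searched for 5 motifs of these pathways, on both strands, in the 300 bases from 250 before to 50 after each RefSeq start. Entries existed for 9 of the 10 genes, and 32851 promoters served as background. The motifs were the ER stress element (CCAAT, then 9 bases of any kind, then CCACG), in 0.119% of all promoters, its second form (ATTGG, 1 base of any kind, CCACG), in 0.0365%, the core TGACGTG of the unfolded protein response element, in 2.01%, the cyclic AMP response element TGACGTCA, in 1.79%, and TTGCATCA, a form of the element that ATF4 and C/EBP proteins bind, in 0.895%. A motif of the first kind holds a CCAAT box, present by itself in 37.4% of promoters, and those with TGACG overlap a shorter element present in 20.8%. Of the 9 genes, Hspa5 held the first and the third, Herpud1 the second and the fifth, and Ppp1r15a the fourth. The other 6, Dnajb9, Atf4, Ddit3, Xbp1, Creb3l2 and Sdf2l1, held none of the 5, which says only that these letters are not in the window. The 250 bases before the start are shown for Hspa5 and Herpud1, which carry the ER stress elements, and for Ppp1r15a and Dnajb9, the members at over 100 CPM with the largest ratios between pools. They are printed 5′ to 3′ on the gene's own strand (RefSeq, GRCm38.p6), with motif matches in capitals. A match is a description of the letters and was not measured as a binding site.
Hspa5: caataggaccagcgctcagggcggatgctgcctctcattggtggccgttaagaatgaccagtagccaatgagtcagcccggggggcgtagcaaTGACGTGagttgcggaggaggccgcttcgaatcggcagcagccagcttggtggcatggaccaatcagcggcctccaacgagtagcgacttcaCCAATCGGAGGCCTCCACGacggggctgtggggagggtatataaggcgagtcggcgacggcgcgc
Herpud1: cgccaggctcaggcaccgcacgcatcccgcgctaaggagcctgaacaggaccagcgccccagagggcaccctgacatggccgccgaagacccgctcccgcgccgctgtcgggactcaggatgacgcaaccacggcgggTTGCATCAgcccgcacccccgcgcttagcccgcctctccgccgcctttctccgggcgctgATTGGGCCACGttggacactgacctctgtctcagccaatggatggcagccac
Ppp1r15a: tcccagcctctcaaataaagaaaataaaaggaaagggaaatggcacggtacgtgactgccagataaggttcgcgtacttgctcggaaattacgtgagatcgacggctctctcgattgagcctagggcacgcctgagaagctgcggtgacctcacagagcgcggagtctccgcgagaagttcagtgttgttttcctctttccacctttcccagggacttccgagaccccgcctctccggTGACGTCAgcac
Dnajb9: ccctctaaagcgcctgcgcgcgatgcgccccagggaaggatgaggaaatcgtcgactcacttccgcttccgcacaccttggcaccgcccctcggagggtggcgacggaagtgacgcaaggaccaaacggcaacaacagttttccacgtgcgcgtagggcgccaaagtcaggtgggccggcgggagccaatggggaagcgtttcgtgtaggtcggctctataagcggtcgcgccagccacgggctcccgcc
The Hspa5 stretch is chr2:34771840-34772089 on the plus strand, with TGACGTG at -157 to -151 and the ER stress element at -65 to -47, counted with the annotated start as 0. The Herpud1 stretch is chr8:94386179-94386428 on the plus strand, with TTGCATCA at -112 to -105 and the second form of the ER stress element at -52 to -42. The Ppp1r15a stretch is chr7:45526269-45526518 on the minus strand, with TGACGTCA at -12 to -5. The Dnajb9 stretch, chr12:44210069-44210318 on the minus strand, has no capitals. It lies before the RefSeq start but inside the GENCODE M21 span of the gene (chr12:44205559-44210326). The Hspa5 stretch likewise runs past the GENCODE start of its gene at 34771970. Windows placed at GENCODE starts were not searched.

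Of the 10 genes, Dnajb9, Creb3l2 and Atf6 were at least 2-fold higher in deleted hosts, none was at least 2-fold lower, and 7 lay within 2-fold. Ratios set deleted hosts over control hosts on the scale of log2(CPM + 1), which understates those of low genes. A gene counted at a log2 ratio of 1 or more in size with at least 5 CPM in the higher pool, a minimum that all 10 passed. Over all 9764 genes at that minimum, 5.98% passed this rule as higher in deleted hosts and 6.71% as lower. Every plate of deleted hosts lay above every plate of control hosts for Ppp1r15a and Creb3l2, against 1.81% of all genes, and the opposite held for none of the 10, against 2.6% of all genes. Where a gene below overlaps only through a named plate, leaving that plate out ends the overlap by construction. No share of all genes was taken with plates left out. The log2 ratio was above 0 for 8 genes and below 0 for Ddit3 and Sdf2l1, with a median of 0.35, beside a median of -0.04 over the 9764 genes. Most genes with 2-fold ratios are low: at 100 CPM or more, 0.544% of 2388 genes were 2-fold higher and 0.419% were 2-fold lower. In that range, which holds 6 of the 10, Dnajb9 had the 7th highest ratio of the 2388 and Ppp1r15a the 15th, while Hspa5, Atf4, Herpud1 and Xbp1 stood at places 234, 241, 264 and 839.

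**Figure D1:**
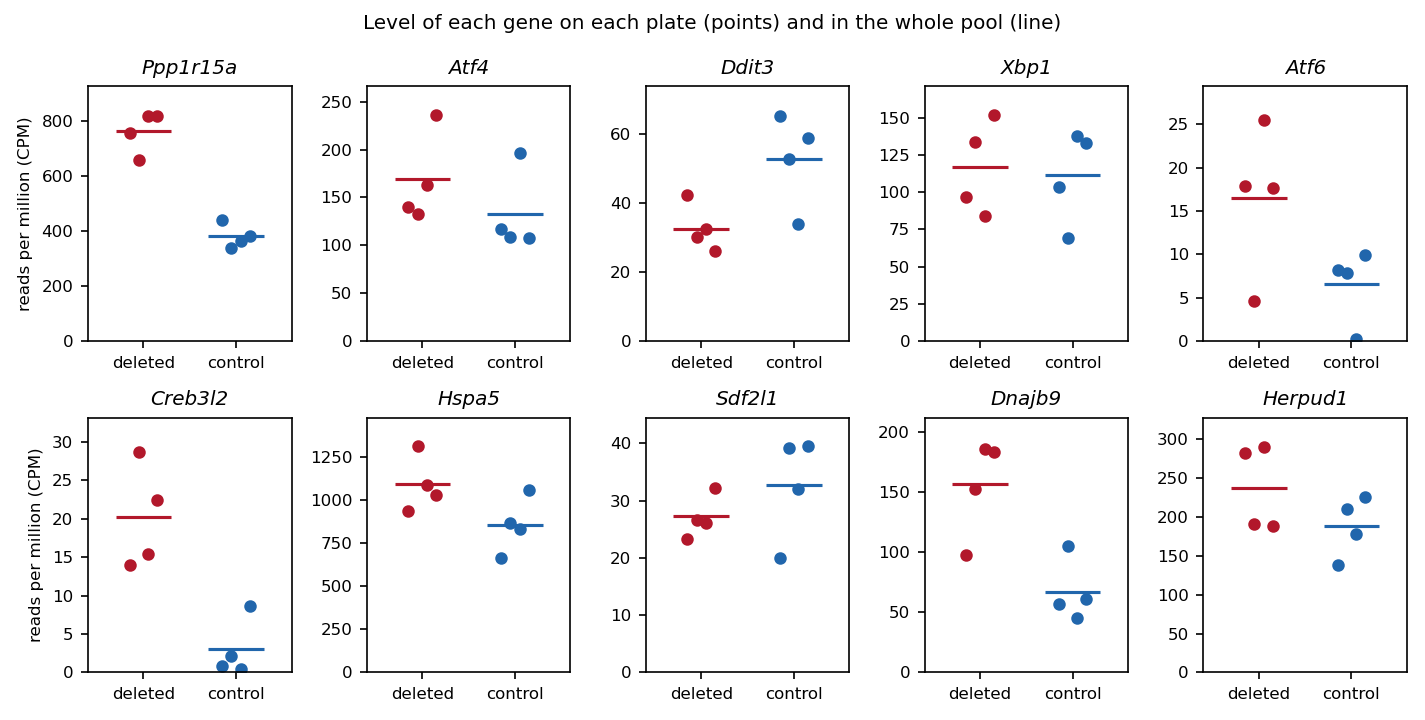
Level of each of the 10 genes in CPM, with deleted hosts at the left and control hosts at the right of each panel. Points are the 4 plates of a pool, lines the level over all cells of the pool, and each panel has its own axis from 0. The plates of the pools do not overlap for Ppp1r15a and Creb3l2, and Ddit3 and Sdf2l1 are the panels with the lower line in deleted hosts.

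Ppp1r15a (chr7:45522916-45526268, minus strand, GRCm38) encodes GADD34, the subunit that directs protein phosphatase 1 to phosphorylated eIF2 and so restores translation. It was at 764.7 CPM in deleted hosts and 382.3 CPM in control hosts, with exact Poisson 95% intervals of 762.4 to 767.0 and 380.7 to 383.9. The plates of deleted hosts held 757.9, 657.5, 818.3 and 819.8 CPM (763.4 ± 76.3, SD over 4 plates), and those of control hosts 441.8, 338.8, 363.8 and 382.9 CPM (381.8 ± 43.9). The lowest plate of deleted hosts lay far above the highest plate of control hosts, and the plate spread was many times the counting interval, which covers the counting of reads and neither PCR nor mice. The log2 ratio of 0.998 (1.998-fold) fell just short of the 2-fold rule. It reached 2-fold without deleted plate 1 (2.003-fold), deleted plate 2 (2.09-fold) or control plate 1 (2.11-fold), and its range with 1 plate left out was 0.95 to 1.08. The most Ppp1r15a-rich cell carried 1.82% of the gene's reads in deleted hosts and 3.16% in control hosts, so the level did not rest on few cells. The 3′ end of Ppp1r15a overlaps Tulp2 on the other strand, and reads of the pair cannot be told apart without a known strand setting. Tulp2 itself was at 1.53 CPM in deleted hosts and 0.646 CPM in control hosts.

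Atf4 (chr15:80255184-80257541, plus strand), the main transcription factor of the integrated stress response, was at 169.2 CPM in deleted hosts and 132.6 CPM in control hosts, a log2 ratio of 0.35. Its plates held 139.5, 132.2, 162.9 and 235.7 CPM in deleted hosts, and 117.4, 109.0, 196.7 and 107.3 CPM in control hosts. Control plate 3 stood above 3 of the 4 plates of deleted hosts, and without it the plates no longer overlapped and the log2 ratio was 0.60. Without deleted plate 4 the log2 ratio was 0.13. Ddit3 (chr10:127290774-127296288, plus strand) encodes CHOP, a transcription factor that ATF4 induces and that promotes death under lasting stress. It was at 32.3 CPM in deleted hosts and 52.6 CPM in control hosts, the lowest ratio of the 10 (log2 -0.68). Its plates held 42.1, 29.9, 32.5 and 25.9 CPM in deleted hosts, and 65.1, 52.5, 33.8 and 58.6 CPM in control hosts. The pools overlapped only through deleted plate 1 and control plate 3, and no longer did so when either was left out (log2 ratios of -0.82 and -0.84) or without the highest cell of each pool. Ddit3 shares a stretch of genome with Mars, the methionyl-tRNA synthetase gene, at 125.8 CPM in deleted hosts and 91.3 CPM in control hosts, so part of its reads cannot be told apart from those of Mars. Mars had the opposite direction of ratio (log2 0.46).

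Xbp1 (chr11:5520659-5525893, plus strand) encodes the transcription factor that IRE1 activates by splicing, and was at 117.1 CPM in deleted hosts and 111.4 CPM in control hosts. Its plates held 96.5, 133.4, 84.0 and 151.6 CPM in deleted hosts, and 103.8, 69.3, 137.5 and 132.9 CPM in control hosts. High and low plates were found in both pools, and the log2 ratio of 0.07 turned to -0.09 without deleted plate 4 and also without control plate 2. Atf6 (chr1:170704674-170867771, minus strand), the sensor that is itself a transcription factor precursor, was at 16.5 CPM (Poisson interval 16.1 to 16.8) in deleted hosts and 6.57 CPM (6.36 to 6.78) in control hosts, a 2.31-fold ratio. Its plates held 17.9, 4.65, 25.5 and 17.7 CPM in deleted hosts, and 8.20, 7.90, 0.168 and 9.94 CPM in control hosts. Deleted plate 2 lay below 3 plates of control hosts, and without it the pools did not overlap. Atf6 was read in few cells, 6 positive cells in each pool, with 28.1% of its reads from 1 cell in deleted hosts and 25.3% in control hosts. Its ratio was 1.90-fold without deleted plate 3, 1.80-fold without control plate 3, 1.81-fold with every cell weighed the same and 1.36-fold without cells positive for 2 or more B cell or plasma cell markers.

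Creb3l2 (chr6:37327255-37442146, minus strand) encodes an ER-anchored transcription factor related to ATF6, known mainly for raising secretory pathway genes in cartilage cells. It was at 20.2 CPM (Poisson interval 19.8 to 20.6) in deleted hosts and 3.07 CPM (2.93 to 3.22) in control hosts, a 5.21-fold ratio and the highest of the 10. Its plates held 13.9, 28.7, 15.3 and 22.4 CPM in deleted hosts, and 0.806, 2.19, 0.412 and 8.67 CPM in control hosts. No plates overlapped, with control plate 4 nearest to the plates of deleted hosts. Without control plate 4 the ratio was 9.998-fold. With the highest cell left out of both pools, it was 5.57-fold and the plates overlapped. Few cells carried the gene: 15 were positive in deleted hosts, with 4, 5, 3 and 3 per plate, and 6 in control hosts, with 2, 1, 1 and 2 per plate. The highest cell gave 24.4% of its reads in deleted hosts and 37.2% in control hosts.

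The ER chaperone Hspa5 (chr2:34771970-34777547, plus strand), called BiP, holds unfolded proteins and keeps the stress sensors inactive. It was the member with the most reads, at 1094.7 CPM in deleted hosts and 856.0 CPM in control hosts, a log2 ratio of 0.35. Its plates held 937.7, 1312.6, 1089.6 and 1031.5 CPM in deleted hosts, and 663.4, 866.4, 831.6 and 1057.0 CPM in control hosts. Of the control plates only plate 4 reached into the range of deleted hosts, and without it the pools did not overlap (log2 0.48). Sdf2l1 (chr16:17130138-17132383, minus strand), an ER protein that works with BiP and the cochaperone ERdj3, was at 27.2 CPM in deleted hosts and 32.6 CPM in control hosts (log2 -0.25). Its plates held 23.3, 26.6, 26.1 and 32.3 CPM in deleted hosts, and 20.04, 39.1, 31.98 and 39.5 CPM in control hosts, with the lowest plate and the 2 highest plates all in control hosts.

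Dnajb9 (chr12:44205559-44210326, minus strand) encodes ERdj4, a cochaperone of BiP that IRE1 and XBP1 induce and that helps BiP to silence IRE1. It was at 156.8 CPM (Poisson interval 155.8 to 157.9) in deleted hosts and 66.9 CPM (66.3 to 67.6) in control hosts, a 2.32-fold ratio. Its plates held 97.9, 152.9, 186.1 and 183.7 CPM in deleted hosts, and 56.97, 105.4, 45.4 and 61.6 CPM in control hosts. Deleted plate 1, the lowest of its pool, lay just under control plate 2, the highest of its own. The pools did not overlap without deleted plate 1 (2.58-fold) or without control plate 2 (2.83-fold), nor without the highest cell of each pool. For the plates this follows from the choice, since only these plates overlapped. Herpud1 (chr8:94386438-94395377, plus strand), an ER membrane protein of the complex that sends misfolded proteins to degradation, was at 236.4 CPM in deleted hosts and 187.9 CPM in control hosts (log2 0.33). Its plates held 281.6, 190.9, 290.2 and 188.0 CPM in deleted hosts, and 138.1, 209.7, 178.3 and 225.4 CPM in control hosts. Deleted plates 1 and 3 stood above every control plate, while deleted plates 2 and 4 lay among them. The start of Herpud1 overlaps an antisense gene, whose reads cannot be told apart from its own.

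Levels of different genes were set side by side only per kilobase of exon (GENCODE M21). In deleted hosts the order was Ppp1r15a (260.4 CPM per kilobase), Hspa5 (258.9), Herpud1 (101.3), Atf4 (71.7), Dnajb9 (61.5), Xbp1 (36.1), Sdf2l1 (24.6), Ddit3 (18.9), Creb3l2 (2.78) and Atf6 (1.79). In control hosts it was Hspa5 (202.4 CPM per kilobase), Ppp1r15a (130.2), Herpud1 (80.6), Atf4 (56.2), Xbp1 (34.3), Ddit3 (30.7), Sdf2l1 (29.5), Dnajb9 (26.3), Atf6 (0.711) and Creb3l2 (0.422). Ppp1r15a and Hspa5 overlapped over the plates of deleted hosts, and in control hosts every plate of Hspa5 lay above every plate of Ppp1r15a. Other neighbours without overlap were Hspa5 and Herpud1, and Ddit3 and Creb3l2, in deleted hosts. In control hosts they were Ppp1r15a and Herpud1, Atf4 and Xbp1, and Dnajb9 and Atf6. Dnajb9 stood 5th in deleted hosts, where it overlapped both neighbours, and 8th in control hosts.

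Positive cells were those at 10 CPM or more for a gene, provided that this was also 5% or more of its mean on that plate. The share of Ppp1r15a-positive cells was 57.9% in deleted hosts (213 of 368, exact Clopper-Pearson 95% interval 52.7 to 63.0%) and 34.2% in control hosts (126 of 368, 29.4 to 39.3%). The plates held 49, 50, 53 and 61 positive cells in deleted hosts, and 30, 29, 31 and 36 in control hosts, without overlap. Plate counts of positive cells were all above those of control hosts for 0.891% of the 9764 genes and all below for 1.23%. Among the 10 they were all above for Ppp1r15a and Creb3l2 and all below for none. The median over positive cells was 1153 CPM in deleted hosts and 919 CPM in control hosts. For Ppp1r15a the share thus differed 1.69-fold and the median in positive cells 1.25-fold. Dnajb9 had the same pattern, with 25.8% of cells positive in deleted hosts (95 cells, 21.4 to 30.6%) and 14.1% in control hosts (52 cells, 10.7 to 18.1%). Its plates held 15, 21, 29 and 30 positive cells in deleted hosts, and 9, 17, 12 and 14 in control hosts, so that deleted plate 1 overlapped control plates. Medians in its positive cells were 537 CPM in deleted hosts and 418 CPM in control hosts.

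The intervals of the other 8 genes overlapped between pools. Hspa5 was positive in 61.4% of cells in deleted hosts (226 cells) and 56.0% in control hosts (206 cells), the widest share in either pool. Herpud1 was positive in 118 cells in deleted hosts and 98 in control hosts, Atf4 in 96 and 87, Xbp1 in 57 and 54, Ddit3 in 40 and 45, and Sdf2l1 in 27 and 25. For Ddit3 the median in positive cells was 215 CPM in deleted hosts and 368 CPM in control hosts. For Atf6, with 6 positive cells in each pool, it was 939 and 287 CPM. Thinned to 500000 reads per cell, which left out 4 cells of deleted hosts and 2 of control hosts, the shares were 58.0% and 34.4% for Ppp1r15a, 26.1% and 14.2% for Dnajb9, and 61.0% and 56.3% for Hspa5. In 9 wells without a cell, with 6698 to 12348 reads each, Hspa5 had 7 to 20 reads and Ppp1r15a 3 to 7, against medians of 2086.5 and 1641 reads in their positive cells. A rule of 5 reads or more would therefore take in background. Under that rule 98.1% of cells in deleted hosts and 96.7% in control hosts were positive for Hspa5, and 79.6% and 55.98% for Ppp1r15a.

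**Figure D2:**
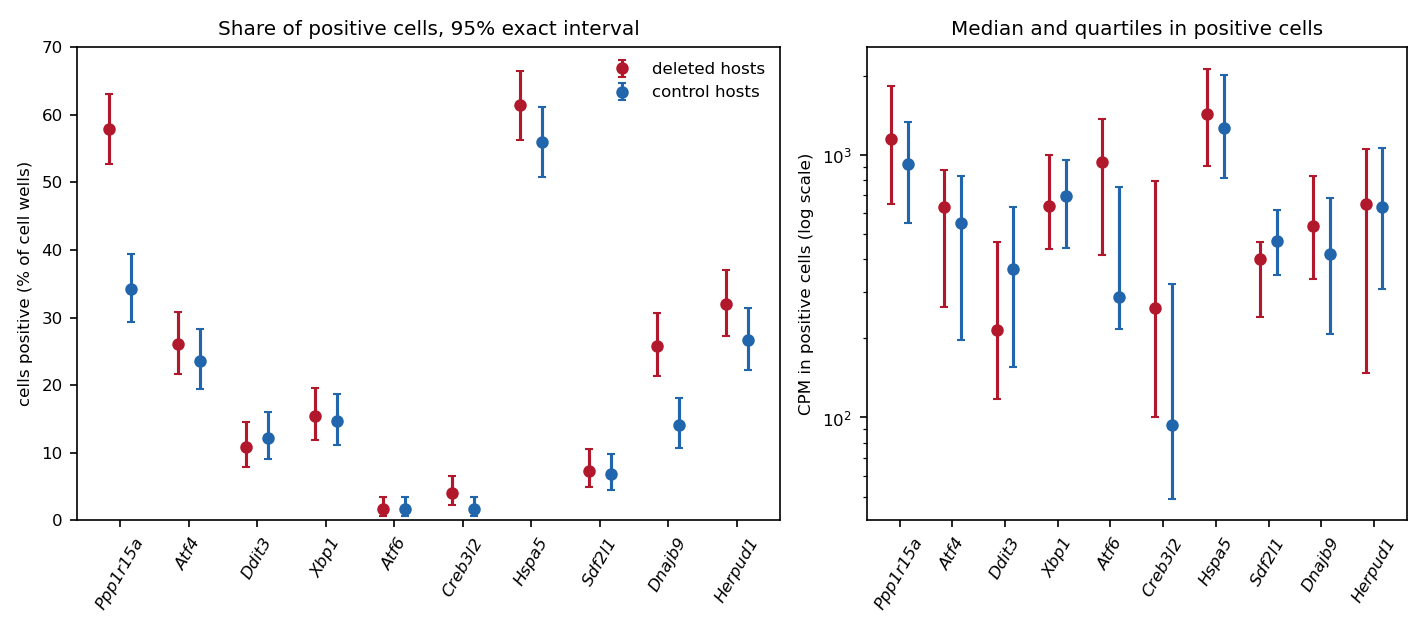
Left, share of cells positive for each gene in deleted hosts and control hosts, in % of 368 cells, with exact 95% intervals that cover counting of cells only. Right, median and quartiles of CPM over positive cells on a log scale. The intervals of Ppp1r15a (57.9% and 34.2%) and Dnajb9 (25.8% and 14.1%) lie apart at the left, while at the right the quartiles overlap for all 10 genes.

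Cells of deleted hosts were positive for more of the 10 genes. The mean was 2.43 genes per cell in deleted hosts and 1.92 in control hosts, with a median of 2 in both. Cells positive for 3 or more made up 45.7% of deleted hosts (168 cells, interval 40.5 to 50.9%, 35, 43, 46 and 44 per plate) and 31.2% of control hosts (115 cells, 26.5 to 36.3%, 26, 26, 31 and 32 per plate). Plates did not overlap. Cells positive for none numbered 20 in deleted hosts (5.43%) and 48 in control hosts (13.04%), of which 22 lay on control plate 1. With Ppp1r15a left out of the count, 26.9% of cells in deleted hosts and 16.8% in control hosts were positive for 3 or more of the other 9. With Dnajb9 left out too, the shares were 16.3% (12.7 to 20.5%) in deleted hosts and 13.04% (9.78 to 16.9%) in control hosts, with overlapping intervals. For 2 or more of the same 8 genes the numbers were 184 cells in deleted hosts (interval 44.8 to 55.2%) and 167 in control hosts (45.4%, 40.2 to 50.6%). The genes left out were those with the largest differences in share in percentage points, so a smaller difference without them follows from the choice. The number also went with the genes detected in a cell: cells positive for none had a median of 1464.5 genes with 5 reads or more, cells positive for 4 had 1759 and the 2 cells positive for 7 had 2229. The part of detection in the difference between pools was not tested. The wells with 8 and 9 positive genes were the wells of 9905 and 71129 reads, where a few reads pass the rule. They held 331 and 719 genes with 5 reads or more.

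**Figure D3:**
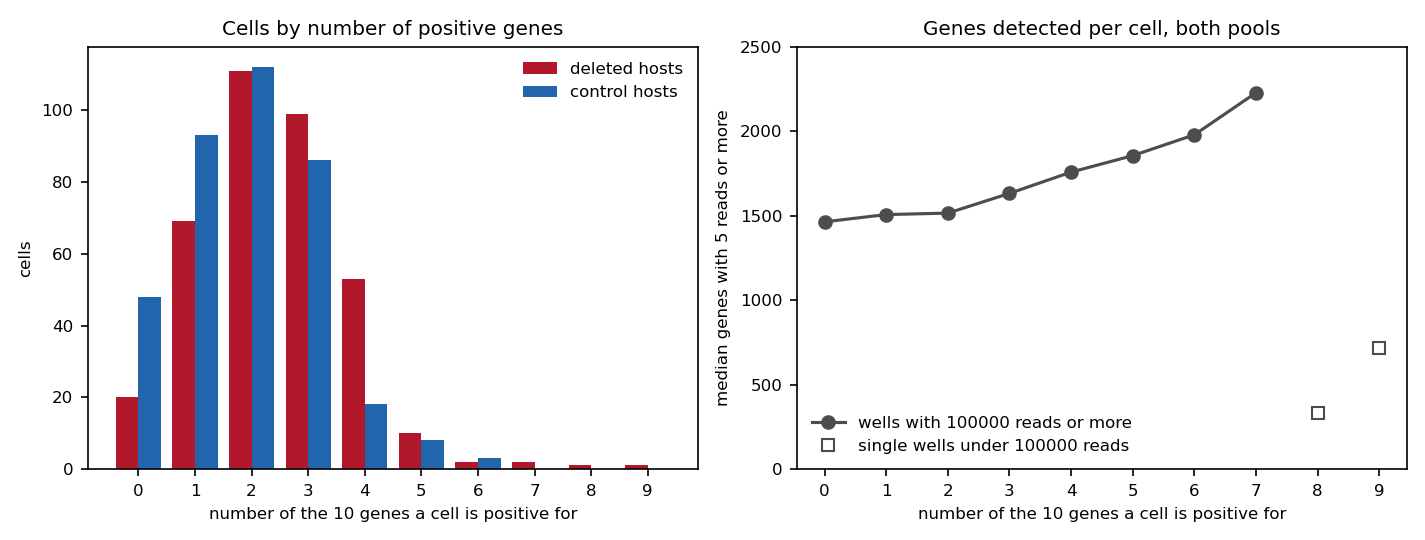
Left, number of cells by how many of the 10 genes they were positive for, in deleted hosts and control hosts. Right, median number of genes with 5 reads or more in cells of both pools, by the same number, with the single wells under 100000 reads as open squares. None of the 10 was positive in 20 cells of deleted hosts and 48 of control hosts, and cells positive for more of them had more genes detected, apart from the shallow wells.

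The 10 genes did not appear in the same cells as a block. Over the 734 cells with 100000 reads or more, the number of cells positive for both genes of a pair was set against the product of their shares. Of 45 pairs, 33 had a product of at least 5 cells, and for these the ratio of observed to product ran from 0.514 to 2.12 with a median of 1.08. In 20 of the 33 it lay between 0.8 and 1.2. Ppp1r15a and Dnajb9, the genes whose shares differed most between pools in percentage points, were found together in 78 cells against 67.0 from the product. Both were positive more often in deleted hosts, so a product over the merged pools is too low for them by construction. Within pools, over all cell wells, they shared 59 cells against 55.0 in deleted hosts and 20 against 17.8 in control hosts. The highest ratios linked Xbp1, Ddit3 and Sdf2l1, and these were the pairs above 1.5. Xbp1 and Ddit3 shared 22 cells against 12.3, above the product on 8 of 8 plates. Xbp1 and Sdf2l1 shared 13 against 7.43, above it on 7 plates. Ddit3 and Sdf2l1 shared 12 against 5.65, above it on 4 plates and below it on 4. At the other end were Creb3l2 and Herpud1 (3 cells against 5.83), Dnajb9 and Sdf2l1 (6 against 9.95) and Ppp1r15a and Sdf2l1 (15 against 23.0, below the product on 7 plates). Cells positive for both Xbp1 and Ddit3 had a median of 1860 genes with 5 reads or more, against 1558 over all 734 cells, and the part of detection in these ratios was not tested. Pearson correlations of plate-centred log2 of CPM + 1 over the same cells were low, from -0.11 to 0.10 with a median of 0.01. The lowest was that of Ppp1r15a with Sdf2l1 and the highest that of Xbp1 with Ddit3. Whether they differ from 0 was not tested.

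**Figure D4:**
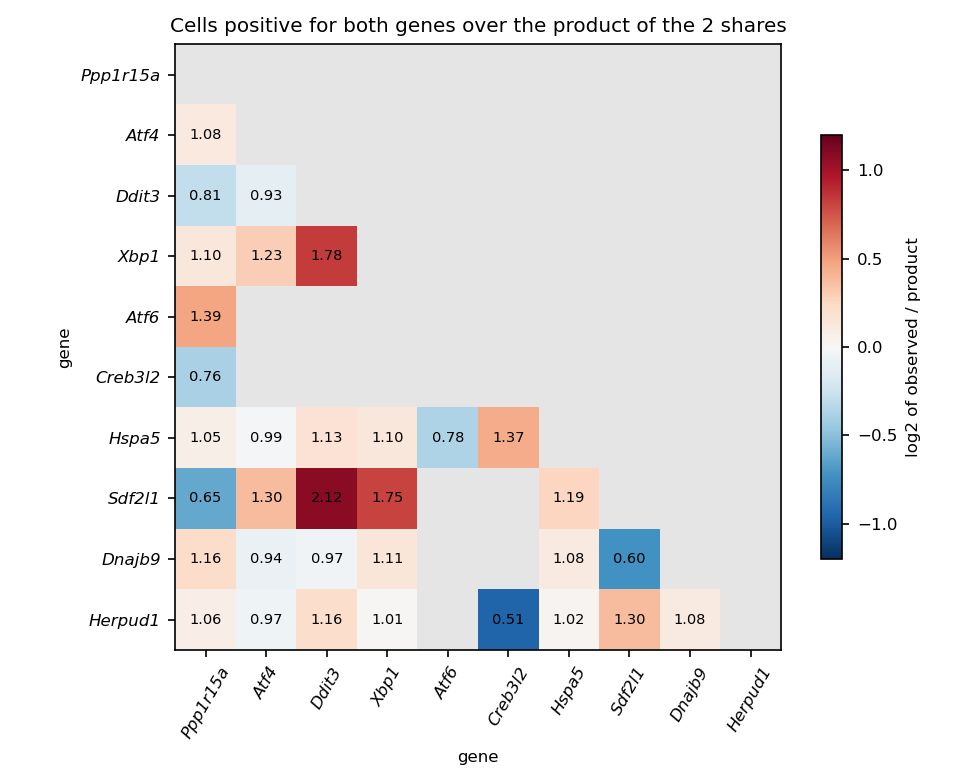
Cells positive for both genes of a pair divided by the number that the product of their shares gives, over 734 cells of both pools, with the ratio printed in each cell and its log2 as colour. Grey cells below the diagonal are pairs with a product under 5 cells. The ratios of Xbp1 with Ddit3 (1.78), Xbp1 with Sdf2l1 (1.75) and Ddit3 with Sdf2l1 (2.12) are the 3 above 1.5.

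Immediate early genes, which T cells switch on within a short time of receptor contact or cell handling, had a higher sum in deleted hosts too. Every plate of deleted hosts lay above every plate of control hosts for 8 of 22 measured (beside 1.81% of all genes) and below for 1 (beside 2.6%). Of the 22, 4 passed the 2-fold rule as higher (beside 5.98% of all genes) and 2 as lower (beside 6.71%). Among the higher ones, both with plates apart, were Dusp5 (218 CPM in deleted hosts and 36.5 CPM in control hosts) and Junb (2890 and 1285 CPM). The lower ones were Egr1, at 116 CPM in deleted hosts and 296 CPM in control hosts with plates apart, and Egr3, at 12.8 and 30.7 CPM. The 22 measured genes summed to 10772 CPM in deleted hosts (plates 10351 to 11191) and 6938 CPM in control hosts (plates 5567 to 8670), with no overlap. Ppp1r15a is often counted with such genes, so its level was also taken within cells positive or not positive for 4 of them, Nr4a1, Cd69, Junb and Dusp1, each of which was itself higher in deleted hosts. In the 189 Nr4a1-positive cells of deleted hosts Ppp1r15a was at 861 CPM (plates 796 to 911), and in the 121 of control hosts at 411 CPM (382 to 452). In the 179 cells of deleted hosts not positive for Nr4a1 it was at 660.2 CPM (516 to 765), and in the 247 of control hosts at 368 CPM (308 to 481). The level was thus higher in Nr4a1-positive cells of both pools, and the pools differed in either kind of cell. In each of the 8 classes formed by the 4 genes every plate of deleted hosts lay above every plate of control hosts for Ppp1r15a, with log2 ratios from 0.84 to 1.12. Dnajb9 was higher in deleted hosts in all 8 classes (log2 0.82 to 2.29), with plates that did not overlap in 2 of them. The 8 classes are 4 splits of the same cells, so they are not separate observations, and no share of all genes was taken within them. The part of the immediate early genes in the levels of the 10 genes was not tested.

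Herpud1 differed by class. In Cd69-positive cells it was at 304 CPM in deleted hosts (137 cells, plates 254 to 369.8) and 135 CPM in control hosts (89 cells, plates 97.0 to 179), and in the remaining cells at 195 CPM in deleted hosts and 206 CPM in control hosts. In Dusp1-positive cells it was at 251 CPM in deleted hosts (plates 196 to 358) and 152 CPM in control hosts (plates 128 to 165), and in the remaining cells at 216 and 214 CPM. Its plates overlapped in the other 6 classes. These classes were picked with their values already seen, and the difference between classes was not tested.

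Of 18 measured cell cycle genes 8 were at least 2-fold higher in deleted hosts and none 2-fold lower, beside 5.98% and 6.71% of all genes, with a median log2 ratio of 0.68. None of the 8 was positive in more than 11 cells of either pool, and Mcm5, a helicase subunit read in more cells, was at 45.3 CPM in deleted hosts and 87.2 CPM in control hosts. The 18 measured genes summed to 976 CPM in deleted hosts (plates 830.4 to 1118) and 811 CPM in control hosts (plates 698 to 905), with overlapping plates. Cells positive for 3 or more of 20 cell cycle genes, a rule set after values were seen, numbered 36 in deleted hosts and 28 in control hosts. Over both pools Hspa5 was at 1356 CPM in these cells and 930.1 CPM in the others, higher on 7 of 8 plates. Xbp1 was at 179 and 107 CPM and Sdf2l1 at 66.3 and 26.0 CPM, each higher on 5 of 8 plates. Ppp1r15a went the other way, at 483 CPM in these cells and 578 CPM in the others, lower on 7 of 8 plates, and so did Atf4, at 119 and 154 CPM, also lower on 7. These cells had more genes with 5 reads or more, with medians of 1957.5 against 1530.5 in deleted hosts and 1814.5 against 1546.5 in control hosts. In the other cells alone the log2 ratios between pools were 1.02 for Ppp1r15a, 1.24 for Dnajb9, 2.52 for Creb3l2 and 0.36 for Hspa5. They were 0.26 for Atf4, 0.26 for Herpud1, 1.26 for Atf6 and -0.55 for Ddit3. For Sdf2l1 the ratio was -0.61, against -0.25 over all cells, and for Xbp1 0.20, against 0.07 over all cells.

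The genes whose levels over single cells were most like those of a member were sought for the 4 members positive in at least 20% of all cells, among 1642 genes at 100 CPM or more that were as widely detected. Likeness was Pearson's r of plate-centred log2 of CPM + 1 over 736 cells, and every value was low. For Ppp1r15a they were Junb (r 0.15), Gpcpd1 (0.12) and Nr4a1 (0.12), for Hspa5 Lax1 (0.23), Nfatc1 (0.19) and Cd200 (0.18), for Atf4 Rab10 (0.17), Ftl1 (0.13) and Usp25 (0.11), and for Herpud1 Abhd17a (0.14), Actr1a (0.14) and Jund (0.13). None was another of the 10 genes. Cells of a pool share libraries and depth, so these are descriptions with no test.

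Over 7 lists with 126 further genes of the unfolded protein and integrated stress responses, 107 reached 5 CPM, 4 (3.74%) were at least 2-fold higher in deleted hosts and none was 2-fold lower, beside 5.98% and 6.71% of all genes. Every plate of deleted hosts lay above every plate of control hosts for 2 of the 107 (1.87%, beside 1.81% of all genes) and below for none (beside 2.6%), and the median log2 ratio was 0.02. Of 6 listed sensors and eIF2 kinases 5 were measured, and none of these differed by 2-fold. None of the 5 encodes IRE1. Eif2ak3, which encodes PERK, was at 14.9 CPM in deleted hosts and 18.4 CPM in control hosts. Eif2ak1, the heme-regulated eIF2 kinase, was at 92.1 and 91.7 CPM, and Atf6b, the paralog of Atf6, at 31.5 and 39.9 CPM. The 3 measured genes of the CREB3 family and its proteases all had log2 ratios above 0, with a median of 0.51. Mbtps2, the site-2 protease that cuts ATF6 and CREB3L2, was at least 2-fold higher, with overlapping plates. It was at 11.9 CPM in deleted hosts (13 positive cells) and 5.16 CPM in control hosts (10 positive cells). Creb3 was at 121 and 84.9 CPM, also with overlapping plates. All 12 genes of eIF2, its exchange factor eIF2B and its phosphatase lay within 2-fold, with a median log2 ratio of -0.12.

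Of 22 measured ER chaperones and folding enzymes 2 were 2-fold higher, beside 5.98% of all genes, and the median was 0.11. They were Hyou1, an exchange factor of BiP, and the oxidase gene Ero1lb, both with overlapping plates. Hyou1 was at 13.7 CPM in deleted hosts (8 positive cells) and 5.23 CPM in control hosts (3 positive cells). Ero1lb was at 20.6 and 6.84 CPM, with 17 positive cells in each pool. Dnajb11, which encodes ERdj3, was the 1 gene of this list with plates apart, beside 1.81% of all genes. It was at 214.0 CPM in deleted hosts (plates 174.5 to 252.6) and 124.7 CPM in control hosts (90.3 to 171.3). Most of the abundant ones differed little: Hsp90b1 was at 182 CPM in deleted hosts and 213 CPM in control hosts, Calr at 209.6 and 171 CPM, and Pdia3 at 626 and 762 CPM. The 20 genes of ER-associated degradation had a median of -0.07, and the 27 of ER translocation and secretory transport 0.02, with none at 2-fold in either list.

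Of 18 measured targets of ATF4 and CHOP 14 had a log2 ratio above 0 and 4 below, with a median of 0.30. Of the 18, 1 was 2-fold higher, beside 5.98% of all genes. That was Psat1, an enzyme of serine synthesis, at 59.3 CPM in deleted hosts (plates 49.6 to 79.7) and 25.7 CPM in control hosts (plates 0.216 to 53.2). Shmt2, of mitochondrial folate metabolism, was at 110.0 CPM in deleted hosts and 69.7 CPM in control hosts, and Slc3a2, a subunit of amino acid transporters, at 227 and 155 CPM. Gars, the glycyl-tRNA synthetase gene, was the 1 target with plates apart, beside 1.81% of all genes. It was at 168.0 CPM in deleted hosts and 126.0 CPM in control hosts. Trib3, a pseudokinase gene that CHOP induces, was at 5.06 CPM in deleted hosts (4 positive cells) and 3.70 CPM in control hosts (2 positive cells).

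**Figure D5:**
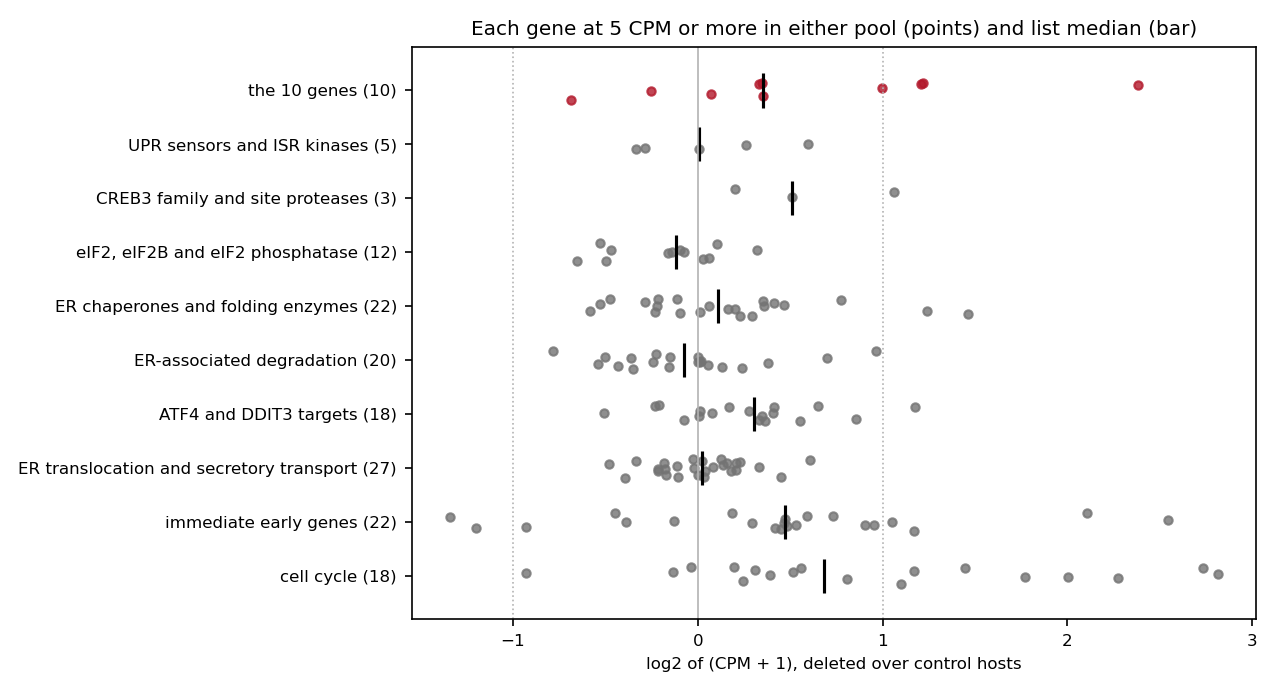
Log2 ratio of each gene at 5 CPM or more, deleted hosts over control hosts, for the 10 genes (red), 7 further lists of their pathways, immediate early genes and cell cycle genes, with the number of genes in brackets. Bars are medians and dotted lines mark 2-fold. The 10 genes have a median of 0.35, and the medians of the 7 pathway lists lie between -0.12 and 0.51.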

How the data were processed

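Whole-number counts of reads, 1 table per plate with a column per well, were deposited by the authors without normalization. Per the submitters' processing notes reads were counted with featureCounts 2.0.1 on mm10, and per the labels' protocols cDNA was amplified with 25 PCR cycles, tagmented and sequenced as paired reads of 150 bases. Aligner, annotation, strand setting and the handling of multimapping reads were not given in the sources used here. The protocol names no molecular identifiers, so intervals cover counting error only.

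Counts of the 92 cell wells per plate were summed per plate and pool and scaled to 1000000 reads in genes (CPM). The 32 wells without a sorted cell (9 without input, 23 named mBM) entered no comparison. Every cell well was kept, and doublets were not called because each well received 1 sorted cell. No test between groups was made, since each group is 1 pooled sample. Shares have exact 95% intervals. The 10 genes, 9 further gene lists and 8 marker lists were chosen with earlier results of these data known. All 10 genes are named. From each list up to 3 genes with the largest ratio at 20 CPM or more could be named, and further list genes, among them Eif2ak3, Mbtps2, Hyou1, Hsp90b1, Calr, Pdia3, Gars and Trib3, were chosen after their values were seen. The median of ratios, TMM factors (edgeR 4.0.16 in R 4.3.3), pseudocounts, minimum levels, definitions of a positive cell and each plate left out were tried as alternatives. Calculations used Python 3.11.15, numpy 2.4.6, pandas 2.3.3 and scipy 1.17.1 and were tested on simulated data.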

Additional observations from a re-analysis of the deposited data

Results flagged for a closer look

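Atf4 on control plate 3, at 196.67 CPM, stood far from the other 3 plates of control hosts, which held 107.3 to 117.4 CPM. Its gap to the nearest plate was 0.887 of the whole range, above Dixon's 95% critical value for 4 plates. It was the 1 set of plates to pass among 20 examined, and chance flags about 1 in 20. Control plate 3 held 25 Atf4-positive cells, against 20 to 22 on the other control plates.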

How the results depend on the processing

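No log2 ratio of the 10 genes changed direction under the alternatives run apart from that of Xbp1, which was near 0 and is given with its gene. Small differences in share could turn. Sdf2l1 was positive in 7.34% of cells in deleted hosts and 6.79% in control hosts. Thinned to 500000 reads per cell, its shares were 6.59% and 6.83%. Cells positive for 3 or more of the 10 genes made up 73.4% of deleted hosts and 58.4% of control hosts when 5 reads sufficed, and with 1 plate left out the shares ran from 44.2 to 48.2% and from 30.1 to 32.2%. Leaving out 1 plate gave 2 to 4 genes at 2-fold or more, 2 to 4 genes with plates that did not overlap (4 without deleted plate 1 and 4 without control plate 3), and a median log2 ratio of 0.27 to 0.47. Plates of any gene separate more easily when fewer are compared. Shares of all genes were not taken under any of the alternatives, so these counts have no background beside them. Under the other alternatives 2 to 4 genes were at 2-fold or more: Ppp1r15a joined under both other scalings, with every cell weighed the same, without the highest cells and without cells with B cell or plasma cell markers. Atf6 dropped out when every cell weighed the same, without cells with such markers, with a pseudocount of 5 CPM and with a minimum of 20 CPM. The log2 ratio of Creb3l2 ran from 1.64 (pseudocount of 5 CPM) to 2.68 (0.1 CPM). No paired analysis was possible because each group is 1 pooled sample. Creb3l2 and Atf6, read in at most 15 cells of a pool, rest on few cells.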
